A study of Mus musculus with 6 samples.

Results

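The genes described here encode 7 laminin chains (Lama1, Lama3, Lama5, Lamb1, Lamb2, Lamb3 and Lamc1) and 2 proteins that link or decorate the basement membrane, nidogen 1 (Nid1) and nephronectin (Npnt). They are 9 of 22180 genes measured, and were chosen by name, each read from the array feature with the highest mean over 6 arrays among features annotated with its symbol alone. The RNA came from hair follicle stem cells of mouse skin at postnatal day 49, isolated with flow cytometry as cells carrying CD34 and α6-integrin, and 1 GeneChip Mouse Gene 2.0 ST array was run per sample. The groups were 3 wild-type (WT) samples and 3 transgenic (TG) samples of genotype K14-sPLA2-IIA, named for a secreted phospholipase A2 and for keratin 14, whose promoter is active in the basal layer of the epidermis and in the follicle's outer sheath. The labels do not say how many mice gave each sample, whether they were different mice, or how many founder lines were used, so the spread between samples may be technical. All values are log2 expression values from the authors' deposited table, read as base 2 from their range, so differences are log2 ratios. Where 3 values are given for a genotype, they are those of arrays 1, 2 and 3 in that order.

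Laminins are large cross-shaped proteins built from an α, a β and a γ chain, and they form the sheet of the basement membrane on which epithelial cells sit. The α3 and β3 chains are part of the anchoring laminin of the epidermis and follicle, which binds α6β4-integrin at hemidesmosomes. The α5 chain with β1 or β2 and γ1 makes the other main laminin of adult skin epithelium, and the α1 chain is best known from embryonic basement membranes. Nidogen 1 binds the γ1 chain and ties laminin to type IV collagen. Nephronectin is a ligand of α8β1-integrin, and in mouse skin it is made by bulge stem cells and anchors the arrector pili muscle at the bulge. The genotypes were compared to ask which genes differ in these stem cells between mice with and without the transgene.

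The arrays matched their genotype labels, since Pla2g2a, the gene of the transgene's enzyme, read 12.39 to 12.61 on the TG arrays and 5.75 to 6.77 on the WT arrays. The first principal component and Cd34 did not separate the genotypes. On that component, which held 64.6% of the variance over all genes, WT array 3 and TG array 3 (scores 50.2 and 53.3) stood apart from WT arrays 1 and 2 and TG array 2 (-34.3 to -32.7), with TG array 1 at -2.78. Cd34, the sort marker, read 9.78, 9.89 and 13.07 on the WT arrays, against 11.57, 9.65 and 12.42 on the TG arrays. Genes of basal keratinocytes were high on all arrays, with Krt14 at 13.80 to 14.24, and so was the bulge keratin gene Krt15 at 13.21 to 13.50. The suprabasal keratin gene Krt10 read 13.02 to 14.12, so transcripts of differentiated epidermal cells were also abundant in the sorted material.

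No laminin, nidogen or nephronectin gene passed the test between genotypes. With limma over all 22180 genes and Benjamini-Hochberg adjustment, 0 of the 9 members had an adjusted p under 0.05, in a comparison where 1 gene was called higher in TG (0.00451% of genes) and 0 lower (0%). At an unadjusted p under 0.05, 1 member, Lama1, was lower in TG against 0.843% of all genes, and 0 were higher against 1.93%. This Lama1 value depended on the arrays and on the setting. Its unadjusted p in limma was between 0.101 and 0.147 without WT array 1, WT array 2, TG array 1 or TG array 3. It was 0.0581 after quantile normalization, 0.0528 with all features tested and 0.046 without TG array 2. It fell to 0.00057 without WT array 3, 0.0023 without both arrays numbered 3 and 0.00061 with array weights. In none of these settings was its adjusted p under 0.05. Without WT array 1 the member under 0.05 was Lama3 (unadjusted p = 0.0416 in limma). For 1 member, Lama3, every TG value was under every WT value, against 3.21% of all genes, and for 0 members every TG value was over every WT value, against 3.99%. The difference TG minus WT was above 0 for 5 of 9 members, against 47.9% of all genes, and its median was 0.03 over the members and -0.01 over all genes. With arrays of the same replicate number treated as pairs, 0 members passed the adjusted threshold as well, and Lama1 was the 1 member at an unadjusted p under 0.05, against 3.86% of genes lower and 4.59% higher in that fit. The smallest p that an exact permutation of 3 against 3 arrays can give is 0.1.

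**Figure D1:**
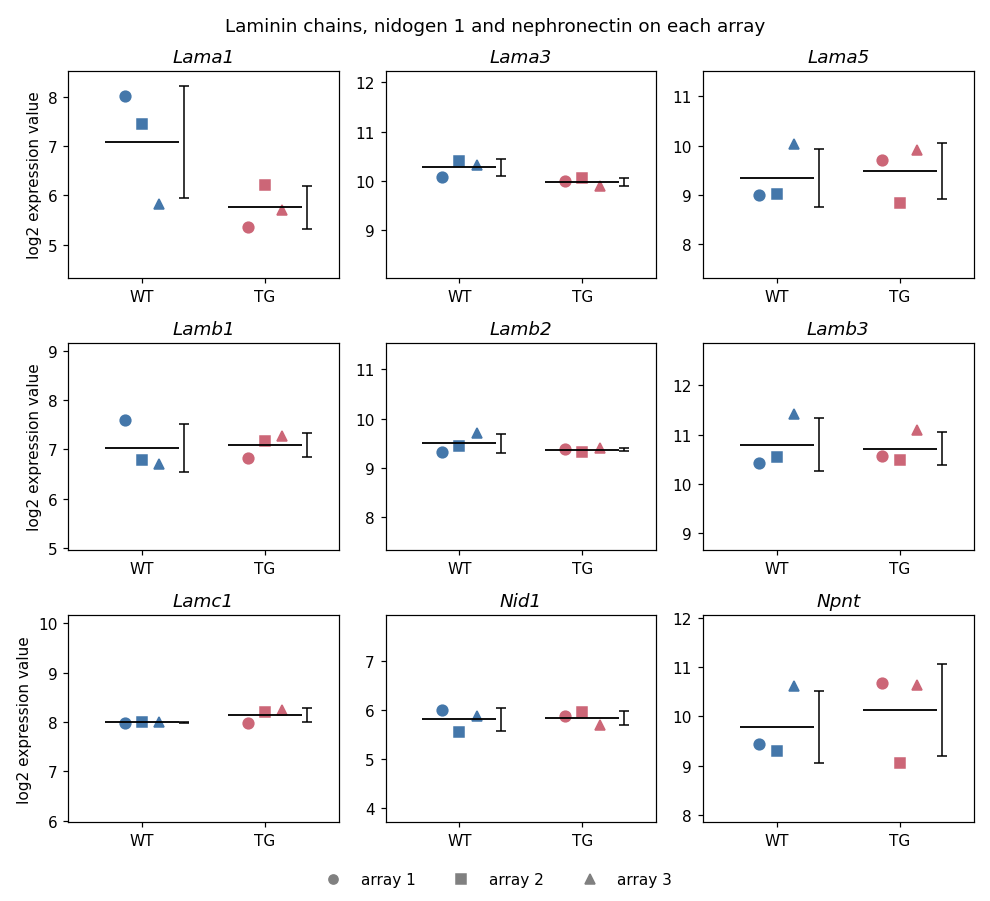
Log2 expression value of the 9 genes on each array, 1 panel a gene, with WT in blue and TG in red, the array number as the symbol, the genotype mean as a line and the SD as a bar. Each vertical axis spans the same number of log2 units. Lama3 is the gene whose 2 genotypes do not overlap, and Lama1, Lama5, Lamb3 and Npnt spread most among the arrays.

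Among the α chains, Lama1 had the largest difference between the genotype means. It read 8.01, 7.45 and 5.82 on the WT arrays, against 5.36, 6.21 and 5.70 on the TG arrays. The high values are those of WT arrays 1 and 2, while WT array 3 lies inside the TG range, so the genotypes overlap. The 3 highest values, on WT arrays 1 and 2 and TG array 2, are on the 3 arrays with the lowest Cd34. These arrays also have the lowest scores on the first principal component, and the share of all genes with this split was not counted. The means were 7.09 ± 1.14 in WT and 5.76 ± 0.43 in TG (SD, n = 3 each). The difference was -1.33 ± 0.55 (SE), with a 95% interval of -2.65 to -0.02 and an adjusted p of 0.99996 in limma (unadjusted p = 0.0480). The exact two-sided permutation test gave p = 0.2. Within same-numbered arrays the Lama1 difference was -2.65, -1.23 and -0.12 for numbers 1, 2 and 3, so it had the same sign in 3 of 3 and was close to 0 between the arrays numbered 3. The labels state no such pairing. After subtracting each genotype's mean, WT array 1 correlated across genes at 0.196 with TG array 1 and at 0.501 with TG array 2. Without WT array 3 it was -1.97 (adjusted p = 0.881), and without WT array 1 it was -0.88 (adjusted p = 0.99977), in limma. Without both arrays numbered 3 the Lama1 difference was -1.94 (adjusted p = 0.771 in limma).

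Lama3, the α chain of the anchoring laminin of hemidesmosomes, had a small difference that separated the arrays by genotype. It read 10.09, 10.41 and 10.33 on the WT arrays, against 9.99, 10.07 and 9.90 on the TG arrays. Every TG array lies below every WT array, but the gap between TG array 2 and WT array 1 is small beside the spread within WT. The means were 10.27 ± 0.17 in WT and 9.99 ± 0.08 in TG (SD, n = 3 each). The difference was -0.29 ± 0.14 (SE), or a TG level of 0.819 times the WT level, with a 95% interval of -0.62 to 0.04 and an adjusted p of 0.99996 in limma (unadjusted p = 0.0776). The exact two-sided permutation test gave p = 0.1. With 1 array left out, the difference ran from -0.38 to -0.22, so no single array carried it, and it was -0.22 without both arrays numbered 3 (adjusted p = 0.819 in limma). Lama1 and Lama3 were the 2 members with the lower value in TG in all 3 same-numbered comparisons, against 16.5% of all genes, and 0 members had the higher value in all 3, against 14.6%. This pairing is not stated by the labels.

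**Figure D2:**
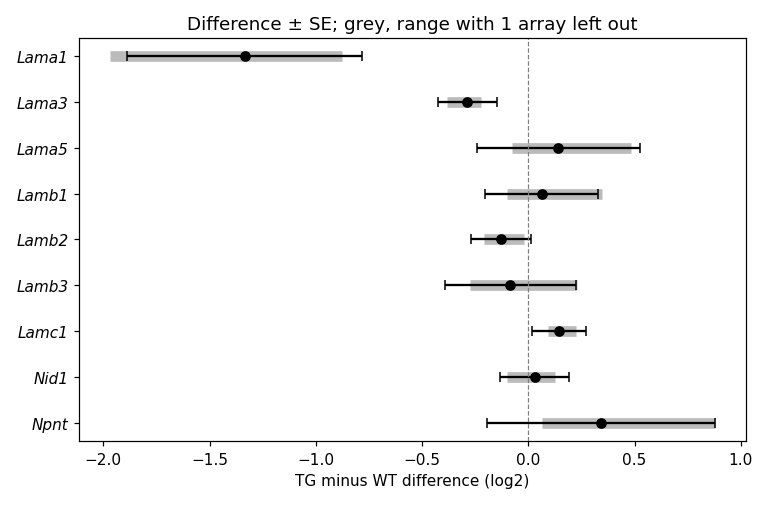
TG minus WT difference of each gene on the log2 scale, with its standard error from limma as a bar and, in grey, the range when 1 array is left out. Lama1 (-1.33), Lama3 (-0.29) and Lamb2 (-0.13) stay below 0, Lamc1 (0.15) and Npnt (0.34) stay above it, and the others cross it.

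Lama5, Lamb3 and Npnt were high on array 3 of both genotypes. On TG array 1, Lama5 and Npnt were also high and Lamb3 was not. Their promoter windows are shown because of the values on array 3. Each window runs from 250 bases before to 50 bases after an annotated start, from RefSeq (GRCm38.p6), 5′ to 3′ on the gene's strand. The Lama5 window is chr2:180225810-180226109 on the minus strand. The Lamb3 window is chr1:193301744-193302043 on the plus strand, and the Npnt window is chr3:132950242-132950541 on the minus strand. Lamb3 and Npnt each have 2 windows in the table, and the one farthest 5′ is given. Capitals mark a GC box, GGGCGG on either strand.
Lama5: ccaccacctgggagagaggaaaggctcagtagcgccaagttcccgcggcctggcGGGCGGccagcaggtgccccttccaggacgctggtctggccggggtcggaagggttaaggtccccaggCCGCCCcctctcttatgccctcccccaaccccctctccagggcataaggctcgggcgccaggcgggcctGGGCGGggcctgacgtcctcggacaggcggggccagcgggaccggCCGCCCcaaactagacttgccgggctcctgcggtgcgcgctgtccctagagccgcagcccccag
Lamb3: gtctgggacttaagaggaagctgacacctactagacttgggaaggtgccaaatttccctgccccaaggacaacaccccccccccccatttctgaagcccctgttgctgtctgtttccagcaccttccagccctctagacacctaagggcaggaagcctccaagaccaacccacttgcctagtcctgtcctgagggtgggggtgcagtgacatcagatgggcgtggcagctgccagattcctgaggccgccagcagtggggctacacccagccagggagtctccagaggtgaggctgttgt
Npnt: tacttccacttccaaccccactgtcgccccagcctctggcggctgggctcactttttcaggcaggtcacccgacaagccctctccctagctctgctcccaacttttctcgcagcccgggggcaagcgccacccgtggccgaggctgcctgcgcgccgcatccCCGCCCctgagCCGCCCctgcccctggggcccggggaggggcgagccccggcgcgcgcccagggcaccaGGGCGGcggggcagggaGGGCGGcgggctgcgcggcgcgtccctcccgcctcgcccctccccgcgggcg

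The Lama5 and Npnt windows each hold 4 GC boxes and the Lamb3 window 0, and 35.7% of 32851 mouse promoter windows of the same length hold at least 1. The G and C content was 72.7% for Lama5, 76.7% for Npnt and 59.3% for Lamb3. The AP-1 motif TGANTCA, found in 7.81% of all windows, and the TCF/LEF motif CTTTGAT, found in 3.73%, had 0 matches on either strand in the 3 windows, and no motif matches overlapped. RefSeq windows were matched by symbol for 6 of the 9 members.

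Npnt, the bulge gene of the arrector pili anchor, read 9.43, 9.30 and 10.61 on the WT arrays. On the TG arrays it read 10.68, 9.05 and 10.64. The high arrays are WT array 3 and TG arrays 1 and 3, and the genotypes overlap. The means were 9.78 ± 0.72 in WT and 10.12 ± 0.93 in TG (SD, n = 3 each), and the difference was 0.34 ± 0.54 (SE) with a 95% interval of -0.94 to 1.62. It ranged from 0.06 without TG array 1 to 0.88 without TG array 2, with no adjusted p under 0.05 in limma (adjusted p = 0.99996 on all arrays).

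Lama5, the α chain of the main laminin of adult epithelia, read 8.99, 9.01 and 10.03 on the WT arrays. On the TG arrays it read 9.70, 8.84 and 9.92. From low to high the arrays are TG 2, WT 1, WT 2, TG 1, TG 3 and WT 3, which is the same order as for Cd34. The first principal component ranks the arrays in nearly this order, and the share of all genes with it was not counted. The genotype difference of Lama5 was 0.14 ± 0.38 (SE), with a 95% interval of -0.77 to 1.06 (adjusted p = 0.99996 in limma), and it turned to -0.076 without TG array 3, -0.036 without WT array 1 and -0.025 without WT array 2.

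Lamb3, the β chain that pairs with α3 in the anchoring laminin, read 10.43, 10.54 and 11.43 on the WT arrays. On the TG arrays it read 10.57, 10.48 and 11.10. Here the 2 arrays numbered 3 are high and the other 4 lie close together. The genotype difference of Lamb3 was -0.08 ± 0.31 (SE), with a 95% interval of -0.82 to 0.65 (adjusted p = 0.99996 in limma), and it turned to 0.23 without WT array 3 and 0.034 without TG array 2.

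Set against the mean of the other arrays of the genotype, array 3 was higher for Npnt by 1.25 in WT and 0.77 in TG. The same comparison gave 1.03 and 0.65 for Lama5, and 0.94 and 0.57 for Lamb3. For Lama1 it went the other way in WT, with -1.91, and was -0.09 in TG. Array 3 was above both other arrays in both genotypes for 4 of 9 members (Lama5, Lamb2, Lamb3 and Lamc1), or 44.4%, against 23.5% of all genes. The margin was small for Lamc1 in WT (8.002 against 7.990) and for Lamb2 in TG (9.40 against 9.38). Npnt is not among the 4, since TG array 1 (10.68) was above TG array 3 (10.64). Array 3 was below both other arrays in both genotypes for 0 members, against 34.5% of all genes. Without both of these arrays the genotype difference was 0.50 for Npnt, 0.27 for Lama5 and 0.04 for Lamb3, with adjusted p-values of 0.871 to 0.964 in limma. These are descriptions of 2 arrays that differ from the rest over many genes, and no test was made of them.

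**Figure D3:**
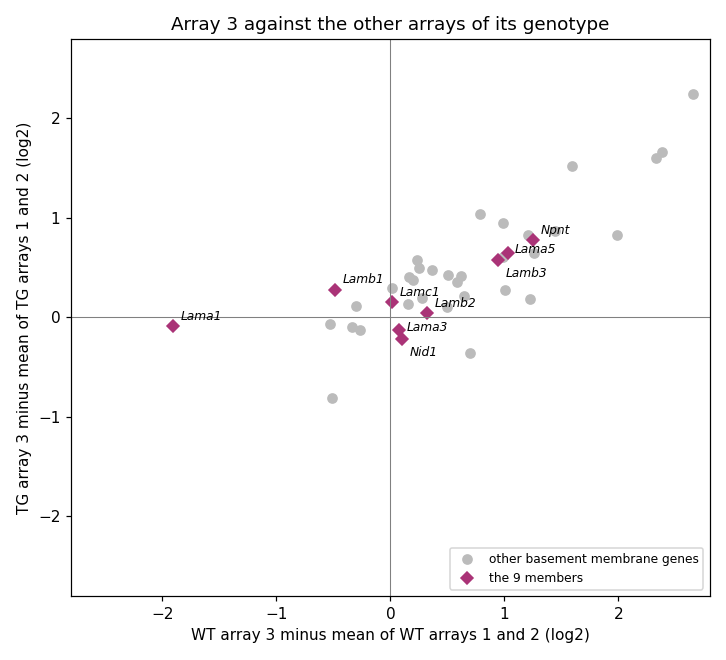
Log2 value of array 3 minus the mean of arrays 1 and 2 of the same genotype, in WT on the horizontal axis and in TG on the vertical axis, for the 9 genes (diamonds, named) and 32 other basement membrane genes (grey). Npnt (1.25 and 0.77), Lama5 (1.03 and 0.65) and Lamb3 (0.94 and 0.57) lie in the upper right with most of the other genes, and Lama1 (-1.91 and -0.09) lies at the left.

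The other β chains and the γ1 chain varied less. Lamb1, the β chain of both the α1 and the α5 laminins, read 7.58, 6.78 and 6.70 on the WT arrays, against 6.82, 7.16 and 7.27 on the TG arrays. The highest value is that of WT array 1, all TG arrays lie between it and the other WT arrays, and the difference of 0.06 ± 0.27 (SE) turned to -0.10 without WT array 3, -0.055 without WT array 2 and -0.029 without TG array 3. Lamb2, the alternative to Lamb1 in the α5 laminins, read 9.33, 9.45 and 9.72 on the WT arrays. On the TG arrays Lamb2 read 9.38, 9.33 and 9.40, which is a narrow band at the low end of the WT values. Its difference was -0.13 ± 0.14 (SE), with a 95% interval of -0.47 to 0.21.

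Lamc1, the γ chain to which nidogen binds, had the narrowest range of the 9 genes, 0.26 over 6 arrays, where the median gene ranged over 0.59. It read 7.982, 7.990 and 8.002 on the WT arrays, against 7.98, 8.19 and 8.24 on the TG arrays. TG arrays 2 and 3 lie above all WT arrays, and TG array 1 lies just below them. The difference was 0.15 ± 0.13 (SE), with a 95% interval of -0.16 to 0.45. Nid1 read 5.998, 5.54 and 5.88 on the WT arrays, against 5.87, 5.95 and 5.69 on the TG arrays, with the genotypes overlapping. Its difference was 0.03 ± 0.16 (SE), with a 95% interval of -0.36 to 0.42, and it turned to -0.10 without WT array 2 and -0.026 without TG array 2. Nid1 was the 1 member with 2 features. The dimmer feature read 4.84, 4.62 and 5.72 on the WT arrays, against 5.23, 6.13 and 5.26 on the TG arrays. It had a mean of 5.30 over the arrays and a difference of 0.48. The features of Nid1 thus disagreed in the size of the difference, the spread and the order of the arrays. In limma the adjusted p of Lamb1, Lamb2, Lamc1 and Nid1 was 0.99996.

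Partners, meaning chains of 1 trimer or nidogen 1 with its γ1 chain, were also compared within each array, which removes any shift shared by both genes. A total of 6 pairs were compared by an exact two-sided permutation test of the within-array log2 difference, adjusted over the pairs. With 3 against 3 arrays the smallest p this test can give is 0.1, so no pair could fall under 0.05. Lama1 minus Lamc1 was lower in TG by the largest amount, -1.48, with values about the pair's mean of 1.66, 1.10 and -0.54 on the WT arrays, against -0.98, -0.34 and -0.90 on the TG arrays (exact p = 0.2, adjusted p = 0.6). Lamb2 minus Lamc1 differed by -0.27 between genotypes (exact p = 0.2, adjusted p = 0.6), and Lama3 minus Lamb3 by -0.20 (exact p = 0.5, adjusted p = 0.9). The Lama3 minus Lamb3 values spread over 1.06, with the 2 arrays numbered 3 lowest (-0.47 in WT and -0.57 in TG about the mean). There Lamb3 was high and Lama3 was not. Nid1 minus Lamc1 differed by -0.12 (exact p = 0.6, adjusted p = 0.9), while Lamb1 minus Lamc1 (-0.08) and Lama5 minus Lamc1 (-0.004) had an exact p of 1. Of the 6 pair differences, those of Lama1 and Lamb2 against Lamc1 stayed below 0 with any 1 array left out, and the other 4 turned above 0 without at least 1 array.

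Likeness over the 6 arrays was measured as the root mean square difference between log2 profiles centred on their own means, where 0 means the same profile. A gene's own root mean square about its mean is its distance from a flat profile, and a nearest member no closer than that shows no likeness. Lama5 and Lamb3 were nearest to each other (0.25, against 0.48 and 0.37 from flat), and the member nearest to Npnt was Lama5 (0.26, against 0.70 from flat for Npnt). Npnt and Lamb3 were 0.51 apart, which is farther than Lamb3 is from flat. Lama3, Lamb2, Lamc1 and the brighter feature of Nid1 varied little, at 0.18, 0.13, 0.11 and 0.16 from flat. For Lamb2, Lamc1 and Nid1 the nearest member was farther than that (0.15, 0.19 and 0.20), and for Lama3 (0.15, to Lamb2) and Lamb1 (0.29, to Nid1, against 0.31 from flat) it was little closer. Lama1 stood far from all other members, its nearest being Lamb1 at 0.87. Lama1 also had the widest range, 2.65, and the 5 genes of the whole table closest to it were Cdh4 (0.22), Mir708 (0.32), Nectin3 (0.40), Slc9a7 (0.41) and Nkd2 (0.41). Cdh4, which encodes R-cadherin, read 9.02, 8.78 and 6.95 on the WT arrays, against 6.98, 7.76 and 6.86 on the TG arrays. WT arrays 1 and 2 were highest and TG array 2 came next, as for Lama1. This match follows from choosing Cdh4 by its closeness to Lama1.

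**Figure D4:**
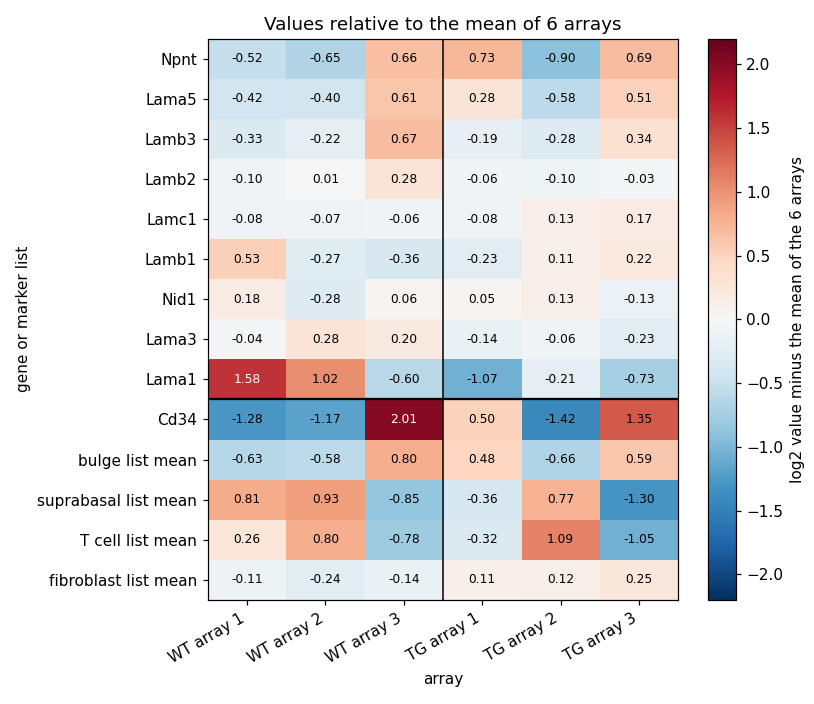
Log2 value minus the mean of the 6 arrays for the 9 genes, Cd34 and the mean of 4 marker lists (bulge, suprabasal, T cell and fibroblast), with WT arrays on the left and TG arrays on the right. Npnt and Lama5 are above their means on WT array 3, TG array 1 and TG array 3, as is Cd34, and the suprabasal and T cell lists are below theirs there.

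Of 32 other basement membrane genes measured, 0 passed the adjusted threshold in limma, 14 had a difference above 0 and 18 below, and the median difference was -0.03. At an unadjusted p under 0.05, 1 was higher in TG, against 1.93% of all genes, and 0 were lower, against 0.843%. That was Tinagl1, encoding a matrix protein related to tubulointerstitial nephritis antigen, with 6.06, 6.13 and 6.59 on the WT arrays, against 6.92, 6.58 and 6.86 on the TG arrays, a difference of 0.53 ± 0.19 (SE). Smoc2, a secreted calcium-binding matrix protein gene, differed by -0.44 ± 0.34. Hspg2, encoding the heparan sulfate proteoglycan perlecan, differed by 0.48 ± 0.40 and the laminin γ3 gene Lamc3 by -0.15 ± 0.13. With same-numbered arrays as pairs, 3 of the 32 genes were higher in TG and 1 lower at an unadjusted p under 0.05 in limma. The shares of all genes in that fit were 4.59% and 3.86%, and 0 of the 32 passed after adjustment. Array 3 was above both other arrays in both genotypes for 22 of the 32 genes, or 68.8%, beside the 44.4% of the members and the 23.5% of all genes.

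None of the receptors and their cytoskeletal linkers passed the test. Of 13 measured, 0 passed the adjusted threshold and 0 had an unadjusted p under 0.05 in limma, 4 differences were above 0 and 9 below, and the median was -0.04. Itga6, encoding the α6-integrin used in the sort, read 10.41, 10.48 and 10.14 on the WT arrays, against 10.32, 10.49 and 10.00 on the TG arrays, a difference of -0.07 ± 0.18 (SE). Its partner in hemidesmosomes, Itgb4, differed by -0.06 ± 0.19, with the arrays numbered 3 highest (11.04 in WT and 10.79 in TG), while those of Itga6 were lowest. The linkers Plec (plectin) and Dst (dystonin) differed by -0.11 ± 0.14 and -0.13 ± 0.18, Itga3, of the other laminin-binding integrin of keratinocytes, by 0.13 ± 0.16, and the αv-integrin gene Itgav by -0.07 ± 0.16.

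Of 5 genes of enzymes that process laminins or the matrix around them, 0 passed the adjusted threshold. Mmp9, encoding a gelatinase, read 7.02, 7.42 and 6.79 on the WT arrays, against 6.52, 6.75 and 6.19 on the TG arrays. All its TG values lie below all WT values, as they do for 3.21% of all genes. The Mmp9 difference was -0.59 ± 0.22 (SE) with an unadjusted p of 0.0326 and an adjusted p of 0.99996 in limma. Of all genes, 0.843% were lower in TG at an unadjusted p under 0.05. Bmp1, encoding a protease that trims laminin chains and procollagens, read 8.40, 8.47 and 8.50 on the WT arrays, against 9.14, 8.57 and 8.70 on the TG arrays. All its TG values lie above all WT values, as they do for 3.99% of all genes. The Bmp1 difference was 0.34 ± 0.18 with an unadjusted p of 0.0919 in limma. Mmp2 differed by -0.23 ± 0.27 and Tll1, of the same protease family as Bmp1, by -0.18 ± 0.41.

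Markers of further cell types that may be sorted along moved with the arrays in the following ways, and their part in the values of the members was not tested. Fewer cells of a type and less RNA per cell cannot be told apart in such bulk samples. The mean of 8 suprabasal genes was 10.60 to 12.37 over the WT arrays and 10.15 to 12.22 over the TG arrays, lower on array 3 by -1.72 in WT and -1.50 in TG, where Lamb3, Lama5 and Npnt were high. It was lower in TG in each same-numbered comparison, as Lama1 and Lama3 were. The 3 arrays with the highest suprabasal mean (WT arrays 1 and 2 and TG array 2) were also the 3 with the highest Lama1. The first principal component splits the arrays in the same way, and the share of all genes with this split was not counted. Of the suprabasal genes 0 of 8 had a difference above 0 (median -0.41), and 2 of 8 were lower in TG at an unadjusted p under 0.05 in limma with same-numbered arrays as pairs, against 3.86% of all genes. The mean of 6 T cell genes was 7.21 to 8.78 in WT and 6.93 to 9.07 in TG, lower on array 3 by -1.30 and -1.44, and 0 of 6 had a difference between genotypes above 0 (median -0.15). The mean of 8 bulge genes was 9.95 to 11.37 in WT and 9.91 to 11.17 in TG, higher on array 3 by 1.401 and 0.69, and 7 of 8 had a difference between genotypes above 0 (median 0.32). None of these 3 lists had a gene that passed in limma without the pairing, either adjusted or at an unadjusted p under 0.05.

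The mean of 8 fibroblast genes was the 1 list mean that separated the genotypes, at 6.04 to 6.17 in WT and 6.39 to 6.53 in TG. Among its genes only Pdgfra had every TG value over every WT value, against 3.99% of all genes, and the others overlapped. How often the mean of 8 genes separates the genotypes was not counted. The fibroblast mean is given beside Lama3, whose TG arrays were the lower ones, and beside Lamb1, Lamc1 and Nid1, which fibroblasts also express. Of the fibroblast genes 7 of 8 had a difference above 0 and 0 passed in limma, either adjusted or at an unadjusted p under 0.05. With same-numbered arrays as pairs, 4 of the 8 (Pdgfra, Col1a1, Lum and Dcn) were higher in TG at an unadjusted p under 0.05 in limma, against 4.59% of all genes, and 0 passed after adjustment. The defining gene Pdgfra was low, at 4.71 to 5.08 in WT and 5.18 to 5.46 in TG. The means of 9 endothelial genes (5.56 to 5.95 in WT, 5.69 to 6.04 in TG) and of 7 smooth muscle and pericyte genes (6.41 to 7.002 and 6.50 to 6.97) overlapped between genotypes, as did those of 4 Schwann cell genes (6.50 to 7.04 and 6.62 to 7.05). So did the means of 4 macrophage and Langerhans cell genes (6.91 to 7.12 and 6.61 to 7.20) and 7 melanocyte genes (6.79 to 7.64 and 6.97 to 7.46).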

How the data were processed

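The authors' deposited table gives 1 log2 value per array and feature (41345 features, 2.85 to 14.42). Per the submitters' processing notes, the tools were Transcriptome Analysis Console and Affymetrix Expression Console 1.4.1, with their roles unstated. Not given in the sources used here are the log base, the summarisation, any background correction and any scaling between arrays. Detection values were not used, and no gene is called absent.

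Platform annotation gave 1 symbol for 23521 features, several for 1814 and none for 16010. The brightest one-symbol feature per gene was kept (22180 genes), unfiltered and not rescaled. TG was compared with WT in limma 3.58.1 (R 4.3.3; lmFit and eBayes, two-sided, Benjamini-Hochberg over all genes, threshold 0.05). The test was checked on simulated data with independent noise for each gene and array. That check does not cover differences between arrays that many genes share, as in these data. Differences are TG minus WT in log2 units. The number of arrays limits the precision.

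Members, lists, tests and naming rules were chosen with earlier results of these data known. Besides the members, up to 4 genes of smallest p per list, Itga6, Itgb4, the 5 genes nearest to the member of widest range, label checks and cell type markers are named. A few listed genes were not analysed here.

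Both genotypes carry replicate numbers 1 to 3. After subtracting each genotype's mean, same-numbered arrays correlated across genes at 0.196, 0.672 and 0.742 for numbers 1, 2 and 3, each over the limit of 0.1, so a fit with replicate number as a block was made. The pairing comes from this check alone, as the labels state none, and for WT array 1 the value with TG array 2 was higher (0.501). WT array 2 with TG array 1 also passed the limit (0.17), so the limit does not single out same-numbered arrays. Other alternatives left out arrays or changed the scaling, the features, the filter, the variance model or the array weights.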

Additional observations from a re-analysis of the deposited data

How the results depend on the processing

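No member passed the adjusted threshold in limma under any of the 15 alternatives, and the lowest adjusted p was 0.199 (Lama1 with array weights, difference -1.99). Over all genes, 1 gene was called, against 0 without TG array 1 (287 genes at an unadjusted p under 0.05), 0 without both arrays numbered 3 (1313) and 0 in that fit with the replicate block (1633, chosen after seeing the data). The range with 1 array left out was 0 to 1. With the replicate block 1874 genes had an unadjusted p under 0.05 against 615 without it, and 3119 with array weights, and the block changed no adjusted call of a member. The differences of Lama1, Lama3, Lamb2, Lamc1 and Npnt kept their sign under every alternative that gave a value. The signs of the other 4 turned. Without 1 array, Lama5 ran from -0.076 to 0.48, Lamb1 from -0.10 to 0.34, Lamb3 from -0.28 to 0.23 and Nid1 from -0.10 to 0.13. Lamb1 was -0.19 without both arrays numbered 3 (with or without the block) and -0.16 with array weights, and Lamb3 was 0.038 and 0.013. The within-array differences between genotypes turned without 1 array for Lamb1 minus Lamc1 (-0.25 to 0.20), Lama5 minus Lamc1 (-0.19 to 0.35), Lama3 minus Lamb3 (-0.49 to 0.030) and Nid1 minus Lamc1 (-0.25 to 0.0091). Without both arrays numbered 3, Lama5 minus Lamc1 was 0.17 and Nid1 minus Lamc1 0.039, the latter 0.11 with the mean of the features. The causes were not tested. Lama1 and Nid1 lie under the median level and have no value with the filter on level. The median difference of the members ran from -0.10 to 0.07 over the alternatives. With 3 arrays a genotype, and no background value, differences of low genes can be understated.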
